A study of Homo sapiens with 16 samples.

Results

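TBX15 and CCDC141 are a pair of genes that VCaP prostate cancer cells barely express without androgen and express at a moderate level with it. They were picked out of 58302 listed genes by name, and both (2 of 2) were found in the count tables and passed the filter on low counts. They were chosen by their near-zero counts in control libraries and their high counts with dihydrotestosterone (DHT), so those levels are described below and not tested.

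VCaP is a human prostate cancer line grown from a metastasis, and it carries a fusion that places the ERG gene behind the androgen-driven TMPRSS2 promoter. All groups descend from VCaP kept for 4 months before the experiment, Ver in 1 µM enzalutamide and Vc in ethanol, the solvent. Each line was then deprived of steroid hormones for 48 h or longer and given 1 of 4 treatments for 24 h: 1 nM DHT together with 1 µM enzalutamide, 1 nM DHT alone, 1 µM enzalutamide alone, or control medium. PolyA RNA was sequenced from 2 libraries in each of the 8 groups, 16 in all. Ver and Vc are 1 line each, and the labels do not say that the 2 libraries of a group came from separate cultures, so a p-value measures only the spread between libraries, which may be technical. The sample descriptions put every Ver library in lane 2 and every Vc library in lane 8, so line and lane cannot be told apart in any comparison of Ver with Vc.

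DHT is a potent natural androgen: it binds the androgen receptor, which then enters the nucleus and binds regulatory DNA near its target genes. Enzalutamide competes with androgens for the receptor and hinders its nuclear entry. TBX15 is a T-box transcription factor; in mice it is needed for skeletal development, and in humans its loss causes Cousin syndrome, a skeletal disorder. CCDC141 is a coiled-coil protein, also called CAMDI, which in mice binds DISC1 and myosin II and takes part in the migration of cortical neurons. Neither gene is among the classical prostate lineage genes.

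On GRCh38, TBX15 (ENSG00000092607) lies on the minus strand at chr1:118883046-118989556, and CCDC141 (ENSG00000163492) on the minus strand at chr2:178829757-179050086, by GENCODE release 29. The exons of TBX15 cover 4349 bases and those of CCDC141 cover 15446 bases. The 3′ end of CCDC141 overlaps the annotated span of TTN, the titin gene on the same strand, by 1046 bases. Reads in shared exonic sequence there cannot be assigned to 1 of the genes, and the union counting used leaves them out of both as ambiguous. The promoter of CCDC141, the 1 of the 2 genes matched in the promoter table, is shown because this gene carries the difference between the lines described below. It is the RefSeq sequence (GRCh38.p14) at chr2:179050088-179050387, minus strand, from 250 bases before to 50 bases after the start site, and the capitals mark GATAAG.
CCDC141 promoter: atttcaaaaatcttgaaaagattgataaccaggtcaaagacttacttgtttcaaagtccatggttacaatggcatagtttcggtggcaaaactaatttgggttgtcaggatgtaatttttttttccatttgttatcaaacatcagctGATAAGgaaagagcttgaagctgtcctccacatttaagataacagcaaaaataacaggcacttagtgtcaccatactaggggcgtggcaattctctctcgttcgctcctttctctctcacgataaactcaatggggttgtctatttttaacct
This motif of the zinc finger factors of the GATA family occurred 1 time on the strand shown, with its first base at position -103 from the start site, and 6.36% of the 35116 promoters in the table hold it on either strand. The other motifs were searched on both strands and had 0 matches in this window. These were the androgen half-site AGAACA (in 14.8% of the promoters), the full palindromic androgen response element, made of 2 such half-sites facing each other with 3 free bases between them (in 0.00285%), and the forkhead motif TGTTTAC (in 3.42%). A match is only a run of letters, and these windows do not reach distal enhancers. For TBX15, only the name and position are given.

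Each library held between 8155244 and 13273523 counts in genes. Levels are given as CPM, counts scaled to a common library size with TMM, a method that balances libraries of different composition. On this scale 3 counts were worth 0.231 to 0.345 CPM, so levels below that rest on very few reads. The prostate luminal markers summed to between 11000 and 13100 CPM in the 16 libraries. Of the markers of other cell types, the 4 immune genes together never passed 1.61 CPM, and the 4 adipocyte genes summed to 0.923 to 3.85 CPM, mostly PLIN1, a lipid droplet protein gene, with ADIPOQ (adiponectin) at 0 counts in every library. The 7 striated muscle markers other than TTN together held 0.711 to 4.11 CPM, and the contractile genes DES and MYH7 had 2 counts each in all libraries.

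TBX15 was switched on by DHT in both lines. It had 118 and 92 counts (10.5 and 8.49 CPM) in the Ver libraries with DHT, against 1 and 2 counts (0.097 and 0.179 CPM) in the Ver controls. In Vc it had 162 and 102 counts (13.3 and 10.4 CPM) with DHT, against 1 and 0 counts in the controls. Every DHT library stood far above every control library, which is the pattern the gene was chosen for and no separate support. The ratio of CPM-scaled counts was 68.2 in Ver (95% counting interval 23 to 333) and 297 in Vc (52.8 to 11800), whose upper limits are wide because the controls held 3 and 1 counts in all. With DHT the gene reached 9.51 ± 1.44 CPM in Ver and 11.8 ± 2.08 CPM in Vc (SD, n = 2 each), above 55.6% and 58.4% of the 22553 genes tested, while its control level exceeded 0.443% of them in Ver and 0.0887% in Vc. In bulk RNA, more cells expressing the gene and more RNA per cell cannot be told apart.

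CCDC141 was also switched on in both lines, and to a higher level in Vc. It had 124 and 128 counts (11.1 and 11.8 CPM) in Ver with DHT, against 1 and 8 counts (0.097 and 0.716 CPM) in the Ver controls. In Vc it had 330 and 218 counts (27.1 and 22.2 CPM) with DHT, against 7 and 3 counts (0.539 and 0.255 CPM) in the controls. DHT and control libraries did not overlap in either line, again the pattern the gene was chosen for. The ratio was 27.3 in Ver (14.1 to 60.4) and 61.6 in Vc (33.3 to 129). With DHT the 2 lines did not overlap: the level was 11.4 ± 0.533 CPM in Ver and 24.6 ± 3.5 CPM in Vc, a Ver to Vc ratio of 0.459 (counting interval 0.394 to 0.534), whereas the same ratio for TBX15 was 0.794 (0.659 to 0.956). Both ratios rest on the libraries that picked the genes and are descriptions. Per kilobase of exon, TBX15 with DHT reached 2.19 CPM in Ver and 2.72 CPM in Vc, above CCDC141 at 0.74 CPM in Ver and 1.59 CPM in Vc, although CCDC141 had more reads.

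**Figure D1:**
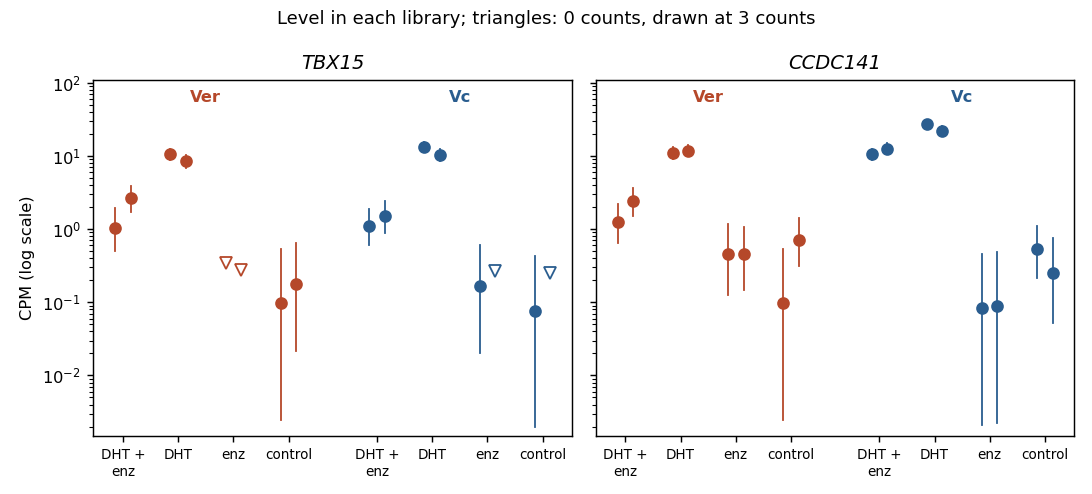
CPM on a log scale for TBX15 (left panel) and CCDC141 (right panel) in each of the 16 libraries, Ver in red and Vc in blue; points are libraries, lines are 95% counting intervals (cut off at the lower edge), and open triangles are libraries with 0 counts, drawn at the level of 3 counts. CCDC141 with both compounds sits between 1.26 and 2.42 CPM in Ver and between 10.6 and 12.6 CPM in Vc, while the 2 lines overlap for TBX15.

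Enzalutamide alone left both genes near silence. TBX15 had 0 counts in both Ver libraries with enzalutamide, and 2 and 0 counts in the Vc libraries. In the Ver libraries 3 counts were worth 0.345 and 0.272 CPM, and the upper 95% counting limits were 0.424 and 0.335 CPM. CCDC141 had 4 and 5 counts (0.46 and 0.454 CPM) in Ver with enzalutamide and 1 and 1 counts (0.0829 and 0.0882 CPM) in Vc. For CCDC141 the ratio of enzalutamide to control was 1.09 in Ver (counting interval 0.383 to 3.1) and 0.212 in Vc (0.0225 to 0.993), where both enzalutamide libraries lay below both controls. No fold is given for TBX15 between such low groups. For CCDC141 with enzalutamide, Ver was 2.27 higher than Vc on the log2 scale (SE 1.15), which did not pass the test (edgeR adjusted p = 0.0898); in this comparison 16.6% of tested genes were called in either direction.

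Given on top of enzalutamide, DHT still raised both genes in both lines. This comparison uses the 8 libraries whose values did not pick the genes. TBX15 had 10 and 25 counts (1.05 and 2.63 CPM) in Ver with both compounds, against 0 and 0 counts with enzalutamide alone. In Vc it had 14 and 17 counts (1.12 and 1.5 CPM) with both, against 2 and 0 counts with enzalutamide. The groups did not overlap in either line. The level with both was at least 5.96-fold higher in Ver, taking 3 counts per enzalutamide library as the floor, and 15.2-fold higher in Vc (counting interval 3.88 to 131). Both rises were called, with an edgeR quasi-likelihood adjusted p of 3.49e-08 in Ver and 1.72e-05 in Vc.

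CCDC141 had 12 and 23 counts (1.26 and 2.42 CPM) in Ver with both compounds, against 4 and 5 counts with enzalutamide. In Vc it had 132 and 143 counts (10.6 and 12.6 CPM) with both, against 1 and 1 counts with enzalutamide. Again the groups did not overlap, but the step was far larger in Vc. The log2 change was 1.98 in Ver (SE 0.571, edgeR adjusted p = 0.00113) and 6.90 in Vc (SE 1.05, edgeR adjusted p = 7.37e-29). Leaving out the Ver library with both compounds that had 23 counts (replicate 2) ended the call in Ver (edgeR adjusted p = 0.118, the highest of a range from 0.000308 over the alternatives). Thus 2 of 2 genes were called higher in each line, where 14.7% of all tested genes were called higher in Ver and 16.4% in Vc.

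The response of CCDC141 to DHT under enzalutamide differed between the lines, and that of TBX15 was not shown to differ. For CCDC141 the log2 effect was smaller in Ver than in Vc (difference -4.92, SE 1.19, 95% interval -7.28 to -2.56, edgeR adjusted p = 0.000408). Only 2.54% of tested genes were called in this test of the difference, and 1.41% in the direction of CCDC141. The size of this difference depends on the 2 counts that Vc had with enzalutamide. For TBX15 the same test gave an edgeR adjusted p of 0.481, and its size has no bound because Ver had 0 counts with enzalutamide.

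Set directly against each other with both compounds present, the lines differed in CCDC141 and not detectably in TBX15. CCDC141 averaged 1.84 ± 0.824 CPM in Ver and 11.6 ± 1.42 CPM in Vc (SD, n = 2 each), a ratio of 0.159 (counting interval 0.109 to 0.227). This was a log2 difference of -2.65 (SE 0.312, edgeR adjusted p = 1.29e-14), and both Ver libraries lay below both Vc libraries. TBX15 averaged 1.84 ± 1.12 CPM in Ver and 1.31 ± 0.264 CPM in Vc, with overlapping libraries and a log2 difference of 0.49 (SE 0.437, 95% interval -0.37 to 1.35, edgeR adjusted p = 0.495). That interval still allows a difference of either sign. Of all tested genes, 20.3% were called in either direction in this comparison and 11% lower in Ver.

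Ordered by mean level, TBX15 ran from Vc with DHT and Ver with DHT, whose libraries overlapped, to Ver and Vc with both compounds, which also overlapped, and then to the 4 groups without DHT, at 0 to 2 counts a library. CCDC141 was highest in Vc with DHT. Vc with both compounds came next and bracketed Ver with DHT: 10.6 and 12.6 CPM in Vc with both, around 11.1 and 11.8 CPM in Ver with DHT. Ver with both compounds followed, above Ver with enzalutamide, Ver control and Vc control, which overlapped, and Vc with enzalutamide was lowest. Across the 16 libraries the 2 genes had a Pearson's r of 0.91 and a Spearman's rho of 0.86 on log2(CPM + 0.5), a description only, since libraries with and without DHT form separate clusters.

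With both compounds, TBX15 stood far below its DHT level in both lines, and CCDC141 lower in Ver than in Vc. TBX15 was at 19.3 ± 12.1% of its DHT level in Ver and 11.1 ± 2.96% in Vc (SD propagated from both groups, 2 libraries each). CCDC141 stood at 16.1 ± 7.24% in Ver and 47.1 ± 8.82% in Vc. Leaving out 1 library moved the share of TBX15 in Ver to between 11 and 27.7%, the first without replicate 2 and the second without replicate 1 of Ver with both compounds. Among 1049 genes raised at least 2-fold by DHT in both lines, the median was 60.7% in Ver and 66.6% in Vc, with quartiles of 45.5 and 71.5% in Ver and 52.1 and 75.9% in Vc. All of these shares use the DHT libraries and are given without a test. They are not corrected for the control level, which was very low for TBX15 and CCDC141 by choice. A gene with a high control level would keep a larger share even without any DHT effect.

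Known androgen-induced genes spread over the same range. KLK2, a kallikrein protease secreted by the prostate, stood at 89.6 ± 3.57% in Ver and 89.1 ± 3.07% in Vc. TMPRSS2, a membrane protease, stood at 32.2 ± 3.71% in Ver and 44.1 ± 1.14% in Vc. FKBP5, a co-chaperone of steroid receptors, stood at 7.41 ± 1.45% in Ver and 13.6 ± 1.01% in Vc, and STEAP4, a metalloreductase, at 8.43 ± 2.59% in Ver and 21.6 ± 0.784% in Vc. TBX15 and Ver CCDC141 thus stood nearer to FKBP5 and STEAP4 than to KLK2. In Ver, control and DHT levels were 2550 and 5400 CPM for KLK2, 71.5 and 1780 CPM for FKBP5, and 0.231 and 80.3 CPM for STEAP4. In Vc they were 2640 and 6090 CPM, 63.9 and 1770 CPM, and 1.13 and 84.6 CPM. The part of the control level in these shares was not tested. Of the 10 androgen-induced genes compared, 6 had a lower share in Ver. All 10 of 10 were called higher with DHT under enzalutamide in each line, beside 14.7% of all tested genes in Ver and 16.4% in Vc, with a median log2 change of 1.18 in Ver and 1.24 in Vc against -0.02 over all tested genes in each. In the test of the difference between the lines 2 of the 10 were called, beside 2.54% of all tested genes, both with the smaller effect in Ver: FKBP5 (-1.11, SE 0.116, edgeR adjusted p = 1.63e-07) and PMEPA1, an inhibitor of TGF-beta signalling (-0.28, SE 0.0655, edgeR adjusted p = 0.00464). The call of PMEPA1 did not hold without replicate 1 of Ver with both compounds, replicate 1 of Ver with enzalutamide, replicate 2 of Vc with both compounds or replicate 1 of Vc with enzalutamide (edgeR adjusted p up to 0.106).

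By level with DHT, TBX15 and CCDC141 ranked high among genes with this off-to-on pattern. They were chosen for that pattern, so the ranks, ratios and shares below are descriptions. Under limits of less than 0.5 CPM in the controls and at least 1 CPM with DHT in each line, 68 tested genes were found, 31 of them protein-coding, and both genes were inside. The control means of CCDC141, 0.406 CPM in Ver and 0.397 CPM in Vc, lay close to the limit. By level with DHT, CCDC141 had rank 2, TBX15 rank 3 and SLC2A3 (a glucose transporter gene, 9.85 CPM in Ver and 8.33 CPM in Vc) rank 4. The median of the 68 genes was 1.54 CPM in Ver and 1.53 CPM in Vc. For the Ver to Vc ratio with DHT, 1 of the 68 genes (SNAI2, a transcription factor gene) was lower than CCDC141, against a median ratio of 1.02. For the share left with both compounds, the medians were 38.4% in Ver and 41% in Vc; 14 of the 68 genes had a lower share than TBX15 in Ver and 2 in Vc, and 11 had a lower share than CCDC141 in Ver and 43 in Vc.

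**Figure D2:**
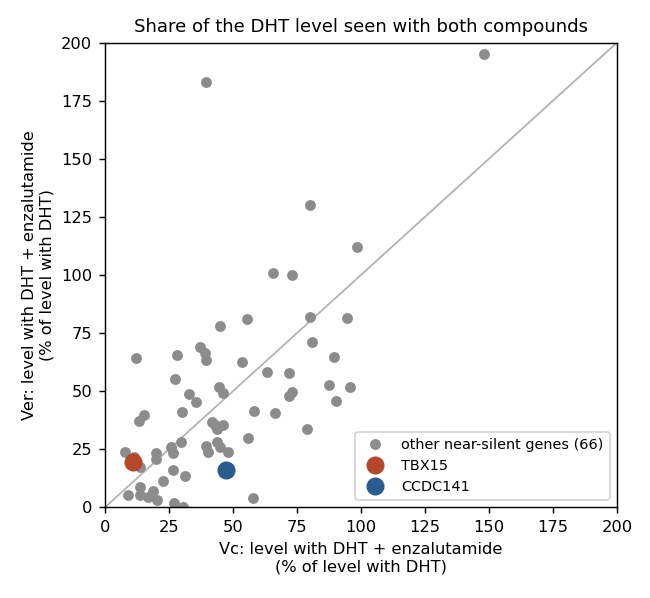
Level with DHT plus enzalutamide as a percentage of the level with DHT, Ver on the vertical and Vc on the horizontal axis, for the 68 near-silent genes; each point is 1 gene from means of 2 libraries a group, and the line marks equal shares. TBX15 lies at 19.3% in Ver and 11.1% in Vc, and CCDC141 below the line at 16.1% in Ver and 47.1% in Vc.

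The genes whose levels followed each of the 2 most closely were abundant genes and not near-silent ones. For TBX15 the 5 highest Pearson correlations over the 16 libraries included those with CSGALNACT1 (r = 0.988), a chondroitin sulfate enzyme, ZC3HAV1 (r = 0.987), an antiviral zinc finger protein, B3GAT1 (r = 0.986), a glucuronyltransferase, and HIPK2 (r = 0.985), a kinase. HIPK2 averaged 2610 ± 36.6 CPM in Ver with DHT and 650 ± 9.76 CPM in the Ver controls. For CCDC141 the 5 were with SELENOT (r = 0.979), a selenoprotein, CAPZB (r = 0.979), an actin capping subunit, C1orf116 (r = 0.978), DYNLT1 (r = 0.977), a dynein light chain, and TM9SF3 (r = 0.975). CAPZB, like CCDC141, was lower in Ver than in Vc with both compounds, at 158 ± 1.28 CPM in Ver and 197 ± 8.1 CPM in Vc. These rankings changed with the pseudocount: with 2 in place of 0.5, 1 of the 5 stayed for TBX15 and 2 of the 5 for CCDC141.

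TBX15 belongs to a family of which part was expressed in these cells. Of its 16 other members 8 passed the filter on low counts, and with DHT under enzalutamide 0 of 8 were called in either direction in Ver, while 1 rose and 2 fell in Vc, beside 14.7% higher and 12.8% lower of all tested genes in Ver and 16.4% and 14.4% in Vc. The family median was -0.04 in Ver and -0.05 in Vc. TBX18, a close relative of TBX15, fell in Vc (log2 change -0.91, SE 0.135, edgeR adjusted p = 5.05e-09). In Ver its log2 change was -0.41 (SE 0.232, edgeR adjusted p = 0.192), and the difference between the lines was not called (edgeR adjusted p = 0.422). TBX18 was lower in Ver than in Vc with both compounds, at 4.2 ± 1.32 CPM in Ver and 21.6 ± 1.24 CPM in Vc (log2 difference -2.36, SE 0.201, edgeR adjusted p = 5.18e-23). It was lower without DHT too, with enzalutamide alone (-2.85, SE 0.179, edgeR adjusted p = 9.58e-34) and by mean in control (4.79 CPM in Ver, 32.7 CPM in Vc). TBX3, the most abundant member and a repressor, averaged 309 ± 6.97 CPM in Ver and 463 ± 16.6 CPM in Vc with both compounds (log2 difference -0.59, SE 0.052, edgeR adjusted p = 2.53e-19). With enzalutamide alone TBX3 was lower in Ver as well (-0.32, SE 0.052, edgeR adjusted p = 3e-07), and its control means were 306 CPM in Ver and 381 CPM in Vc. The rise of TBX3 (0.18) and the fall of TBX19 (-0.76) with DHT in Vc were not called without replicate 2 of Vc with both compounds (edgeR adjusted p = 0.102 for TBX3 and 0.322 for TBX19), and the fall of TBX19 also not without replicate 1 of Vc with enzalutamide or by DESeq2.

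TBX15 recruits Groucho corepressors in mice. Of 6 listed genes 5 were tested, and with DHT under enzalutamide 2 rose and 0 fell in Ver, while 1 rose and 1 fell in Vc, beside 14.7% higher and 12.8% lower of all tested genes in Ver and 16.4% and 14.4% in Vc. AES, a short member of the family, was called in both lines, at 0.29 in Ver (SE 0.0737, edgeR adjusted p = 0.000998) and 0.31 in Vc (SE 0.0725, edgeR adjusted p = 0.000251); in Ver it was not called without replicate 1 of Ver with both compounds (edgeR adjusted p = 0.054). TLE3 rose in Ver by 0.24 on the log2 scale (SE 0.0545, edgeR adjusted p = 0.000132), and in Vc its change was 0.09 (SE 0.0536, edgeR adjusted p = 0.192). TLE2 changed by -1.01 in Ver (SE 0.42, edgeR adjusted p = 0.0558) and fell by 1.86 in Vc (SE 0.511, edgeR adjusted p = 0.001), and the difference between the lines was not called (edgeR adjusted p = 0.629). The median of the 5 was 0.24 in Ver and -0.30 in Vc, against -0.02 over all tested genes in each.

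CCDC141 acts with proteins of the centrosome and with myosin. All 12 of the 12 listed genes were tested, and with DHT under enzalutamide 4 rose and 1 fell in Ver, while 5 rose and 2 fell in Vc, beside 14.7% higher and 12.8% lower of all tested genes in Ver and 16.4% and 14.4% in Vc. The list median was 0.09 in Ver and 0.04 in Vc, against -0.02 over all tested genes in each. NDEL1, a dynein regulator that binds DISC1, rose by 0.52 in Ver (SE 0.0942, edgeR adjusted p = 1.65e-06) and 0.53 in Vc (SE 0.0919, edgeR adjusted p = 6.32e-07). MYH9, a non-muscle myosin II heavy chain, rose by 0.50 in Ver (SE 0.0505, edgeR adjusted p = 1.87e-16) and 0.26 in Vc (SE 0.05, edgeR adjusted p = 5.59e-06), and MYL12A, a myosin light chain, by 0.55 in Ver and 0.58 in Vc. MYH10, the other main heavy chain, fell by 0.39 in Vc (SE 0.0535, edgeR adjusted p = 3.11e-10); its change of -0.19 in Ver was called (edgeR adjusted p = 0.00368) but not without replicate 1 of Ver with both compounds or without replicate 2 of Ver with enzalutamide (edgeR adjusted p up to 0.37). DISC1 itself was not called, at -0.34 in Ver (SE 0.4, edgeR adjusted p = 0.599) and -0.83 in Vc (SE 0.387, edgeR adjusted p = 0.0892).

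Genes next to the pair were taken by position. Within 500 kb of TBX15 there are 3 protein-coding genes, of which WARS2, the mitochondrial tryptophanyl-tRNA synthetase gene, was tested; it was not called in any of the 7 comparisons fitted. WARS2 averaged 20.5 ± 0.624 CPM in Ver with DHT and 19.5 ± 1.97 CPM in the Ver controls. HAO2 and HSD3B2 had 8 and 7 counts in all 16 libraries. Of the 3 tested non-coding neighbours 1 was called in any comparison: the antisense gene AL359915.2 was lower with DHT under enzalutamide in Ver (log2 change -0.36, SE 0.114, edgeR adjusted p = 0.00874), and at -0.01 in Vc (SE 0.108, edgeR adjusted p = 0.958). The call in Ver did not hold without either library with both compounds or without replicate 2 of Ver with enzalutamide (edgeR adjusted p up to 0.0948).

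Around CCDC141, 8 protein-coding genes were tested, and with both compounds 5 of them had a lower level in Ver than in Vc and 0 a higher one, beside 11% lower and 9.28% higher of all tested genes. TTN, whose end overlaps CCDC141, averaged 56.5 ± 7.42 CPM in Ver and 126 ± 7.99 CPM in Vc (log2 difference -1.16, SE 0.0745, edgeR adjusted p = 3.69e-30). ZNF385B, a zinc finger gene, averaged 97.6 ± 3.55 CPM in Ver and 153 ± 2.39 CPM in Vc (-0.65, SE 0.0637, edgeR adjusted p = 7.36e-17). SESTD1 (-0.55), PRKRA (-0.44) and PLEKHA3 (-0.34) were the other 3, and their calls were less stable. Without replicate 2 of Ver with both compounds SESTD1 was not called, and PLEKHA3 was not called without any 1 of the 4 libraries. PRKRA was not called without replicate 1 of Ver or replicate 2 of Vc, nor in an alternative that left out no library. In all, PRKRA kept this call in 6 of 9 alternatives. CCDC141, at -2.65, lay below all of them, but no test was made between genes. With enzalutamide alone 3 of the 8 were also lower in Ver and 0 higher, beside 16.6% of all tested genes called in either direction. These were TTN (-0.62, SE 0.074, edgeR adjusted p = 1.85e-12), ZNF385B (-0.41, SE 0.0591, edgeR adjusted p = 6.02e-09) and PRKRA (-0.38, SE 0.135, edgeR adjusted p = 0.0369). PRKRA kept that call in 4 of 9 alternatives.

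TTN also shared part of the DHT response, on a much smaller scale. It rose by 0.38 in Ver (SE 0.0749, edgeR adjusted p = 5.63e-06) and 0.53 in Vc (SE 0.0677, edgeR adjusted p = 6.21e-12) with DHT against control. With DHT under enzalutamide its log2 change was -0.19 in Ver (SE 0.0797, edgeR adjusted p = 0.0591) and 0.34 in Vc (SE 0.0683, edgeR adjusted p = 1.7e-05). The difference between the lines, -0.53 (SE 0.105, edgeR adjusted p = 0.000319), had the sign of that of CCDC141, and was not called without replicate 1 of Ver with both compounds (edgeR adjusted p = 0.0532). Reads in exons of both genes were ambiguous under the union counting used and entered neither gene's counts. The part of other reads from the overlap was not tested. ZNF385B moved the other way with DHT against control, falling by 1.71 in Ver (SE 0.0682, edgeR adjusted p = 4.25e-53) and 1.48 in Vc (SE 0.0621, edgeR adjusted p = 3.53e-50). Of the 8 neighbours, 1 rose and 6 fell with DHT in Ver, and 1 rose and 5 fell in Vc, beside 21.2% higher and 22.9% lower of all tested genes in Ver and 21.8% and 22.5% in Vc.

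Because CCDC141 is also expressed in striated muscle and TBX15 in mesenchymal cells, their markers were set beside them. The 8 muscle markers summed to 54.4 to 65.9 CPM in Ver with both compounds, 82.5 to 85.1 CPM with DHT, 63.3 to 70.2 CPM with enzalutamide and 65.3 to 65.7 CPM in control. In Vc they summed to 122 to 134, 139 to 155, 102 to 104 and 100 to 105 CPM under the same 4 treatments. Nearly all of this was TTN. The 8 fibroblast and mesenchymal markers ran opposite to TBX15: 3.03 to 3.14 CPM in Ver with DHT against 53.3 to 60.6 CPM in control, and 2.05 to 3.15 CPM in Vc with DHT against 15.8 to 18.4 CPM in control. This came mostly from LUM, the lumican gene; the low-level receptor gene PDGFRB and the surface marker gene THY1 had 0 CPM with DHT in both lines. Among the collagen genes that define fibroblasts, COL1A2 and COL3A1 had 1 and 5 counts in all 16 libraries, while COL1A1 averaged 1.38 to 2.13 CPM in the 8 groups. The part of other cells in the levels of TBX15 and CCDC141 was not tested.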

How the data were processed

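The authors deposited a file of read counts per gene for each library and 1 table of normalized signal, whose values equal the counts divided by a size factor (largest relative deviation 4.9e-10); it served only for gene names. Per the submitters' processing notes, FastQC 0.11.7, Trimmomatic 0.36-5, HISAT2, SAMtools and HTSeq 0.11.1 were used with GRCh38; the count files' names give unstranded union counting. The 5 summary lines were set aside (45 to 50.6% of reads in no gene, 7.09 to 8.55% ambiguous). Counts were fitted in edgeR 4.0.16 (R 4.3.3): filterByExpr by group (22553 genes), TMM, robust quasi-likelihood over 16 libraries and 8 groups (8 residual degrees of freedom), two-sided, with calls at 0.05 after Benjamini-Hochberg adjustment across the 22553 genes. An SE is the Wald SE of the log2 change, from Poisson counting where larger. Counting intervals are exact conditional 95% intervals of summed counts and, like the floor of 3 counts, cover counting error only. Shares of the DHT level are ratios of mean CPM, with the SD of both groups propagated.

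The 2 genes and all lists were chosen with earlier results of these data known, and the fits of DHT against control for genes other than TBX15 and CCDC141 were added after the data were seen. Named genes are those 2, the 5 most alike of each, tested protein-coding neighbours within 500 kb, and up to 4 members of each list with the smallest p in a comparison; others named (DISC1, SLC2A3, SNAI2, HAO2, HSD3B2, AL359915.2 and marker genes) were chosen after their values were seen. Some genes the rule names are not reported here. Alternatives were DESeq2 1.42.0, other scalings, no filter, only the groups compared, a replicate block and leaving out each library. No pairing of libraries by replicate number was detected: over 28 pairs of groups, the correlation of their deviations ran from -0.049 to 0.047. This cannot show that libraries with the same number came from separate cultures or days.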

Additional observations from a re-analysis of the deposited data

Results flagged for a closer look

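The effect of DHT under enzalutamide differed between the lines, by edgeR's test of the difference, for 6 of the genes named. CCDC141 had the smaller effect in Ver (log2 difference -4.92, adjusted p = 0.000408), as did its neighbour TTN (-0.53, adjusted p = 0.000319). FKBP5 (-1.11, adjusted p = 1.63e-07), PMEPA1 (-0.28, adjusted p = 0.00464) and TBX3 (-0.27, adjusted p = 0.0221) had the smaller value in Ver too. MYH9 had the larger effect in Ver (0.24, adjusted p = 0.0399). With some single libraries left out, the adjusted p reached 0.321 for TBX3, 0.258 for MYH9, 0.106 for PMEPA1 and 0.0532 for TTN, while it stayed at or below 0.0161 for CCDC141 and 0.00231 for FKBP5.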

How the results depend on the processing

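For the difference between the lines, 12 alternatives gave a value for TBX15 and CCDC141, against 13 for TTN. For Ver against Vc with enzalutamide 8 did, against 9 for TTN. Wherever a value was given, the tests of TBX15 and CCDC141 kept their direction and side of the threshold, with these exceptions, whose cause was not tested. Leaving out each library gave an edgeR adjusted p of 0.000308 to 0.118 for the rise of CCDC141 with DHT under enzalutamide in Ver, the highest without replicate 2 of Ver with both compounds. Without that library the difference of TBX15 between Ver and Vc with both compounds changed sign (log2 -0.31, adjusted p = 0.813; range over libraries left out 0.176 to 0.813). The number of genes called for the difference between the lines was 573, and 280 to 478 with 1 library left out, where fewer samples enter. With 1 library left out, the log2 ratio of mean CPM with DHT to control ran from 5.73 to 6.62 for TBX15 in Ver, 7.26 to 8.43 for TBX15 in Vc, 4 to 6.88 for CCDC141 in Ver and 5.51 to 6.59 for CCDC141 in Vc. Without replicate 1 of the Vc controls TBX15 gave no ratio, since the other control had 0 counts. With a pseudocount of 2, 1 of the 5 genes most like TBX15 and 2 of the 5 most like CCDC141 stayed. A replicate block changed no call of the 2 genes: for CCDC141 the adjusted p was 0.000457 for the difference between the lines and 0.0012 for the rise in Ver. For the other genes named, 1191 of 1306 recomputed results kept their call, 115 lost it and 0 changed direction. The low counts, 0 to 8 a library without DHT, limit every ratio to those groups.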
